A study of Mus musculus with 6 samples.

Results

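The glutamate receptor and transporter genes were taken by symbol from the protein-coding genes of the count files. They comprised the AMPA receptor subunits Gria1 to Gria4, the kainate receptor subunits Grik1 to Grik5, the delta receptor subunits, among them Grid1, and the NMDA receptor subunits Grin1, Grin2a to Grin2d, Grin3a and Grin3b. The metabotropic receptors, among them Grm2 to Grm8, the vesicular transporters Slc17a6, Slc17a7 and Slc17a8 and the plasma membrane transporters Slc1a1, Slc1a2 and Slc1a3 completed the group. There were 32 such genes among the 21819 protein-coding genes matched in the files. Hippocampal RNA of male mice, labelled C57BL / 6 and given in the methods as C57B6/J mice of 8 to 10 weeks, was sequenced with 1 library per mouse. The TBI group (TBI1 to TBI3) received a controlled cortical impact of moderate severity through a craniotomy over the right parietal bone. The sham group (Sham1 to Sham3) had the same anaesthesia and craniotomy without the impact, so opening of the skull was shared by all 6 mice. Tissue was removed 24 h after surgery, and the methods do not say whether the injured side and the opposite side were pooled.

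Glutamate is the main fast excitatory transmitter of the hippocampus. It is loaded into synaptic vesicles by the proteins of the Slc17a genes and acts on ionotropic receptors, which are ion channels built of 4 subunits, and on metabotropic receptors, which signal through G proteins. It is cleared from the synapse by the transporters of the Slc1a genes, most of it by astrocytes. Raised extracellular glutamate after head injury is a classical trigger of calcium entry through NMDA receptors and of excitotoxic damage.

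The libraries were not equal in tissue content, and 3 of them stood apart. All 7 striatal markers, among them Drd1, Drd2, Adora2a, Ppp1r1b, Rgs9 and Tac1, were highest in TBI1, where their summed level was 3892 CPM (counts per 1000000 of the scaled library total), against 142 to 196 CPM in the other 5 libraries. All 6 cerebellar markers (Pcp2, Car8, Gabra6, Cbln3, Ppp1r17 and Cdh15) were highest in TBI3, with a sum of 1723 CPM against 12.1 to 28.5 CPM elsewhere, and Gabra6 was at 0 in Sham1, Sham2 and TBI1. All 6 oligodendrocyte markers were lowest in Sham2, with a sum of 2862 CPM against 8537 to 10490.1 CPM in the others. Markers of dentate granule cells (Prox1, Dsp, Tdo2, Plk5 and Stxbp6) were nevertheless present in every library, with sums of 75.8 to 283 CPM, and all 5 markers of CA3 pyramidal cells were lowest in TBI1. In TBI2 the striatal and cerebellar sums were 153 and 20.1 CPM, against 142 to 153 and 12.1 to 24.2 CPM in sham. The main differences are therefore given with all libraries and also with TBI2 as the only TBI library. The count totals were 31630936 to 41771872 per library.

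In sham hippocampus the excitatory system was led by a vesicular and an astrocytic transporter. Levels of different genes were compared as CPM per kilobase of exon, with all annotated exons of a gene counted. Slc17a7, which encodes the vesicular glutamate transporter of most cortical and hippocampal excitatory neurons, had 292 ± 53.5 CPM per kilobase (SD, n = 3 mice). It was followed by Slc1a2, the main astrocytic glutamate transporter, with 225 ± 66.8, and by Gria1, the GluA1 subunit, with 127 ± 28.1 CPM per kilobase (SD, n = 3 for both). Slc1a3, the second astrocytic transporter, had 81.7 ± 11.9 CPM per kilobase (SD, n = 3). With the longest coding transcript as the length, Slc17a7 and Slc1a2 still led, with means of 847 and 255 CPM per kilobase, and Slc1a3 (167 ± 24.5) was above Gria1 (138 ± 30.6; SD, n = 3 for both). By all exons Grik5, Gria2 and Grin1 came next with 40.2 ± 3.70, 34.6 ± 6.66 and 29.1 ± 1.82 CPM per kilobase (SD, n = 3 for each).

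At the lower end Slc17a8, Grm8 and Grin3b had means of 1.24, 0.885 and 0.450 CPM per kilobase in sham. Grm6, the receptor of retinal ON bipolar cells, was at 0 counts in all 6 libraries, which allows a level of at most 0.0948 CPM in the shallowest library at 3 counts. Of the 30 pairs of neighbours in the order of the other 31 genes, 26 overlapped between their sham libraries. The 4 steps without overlap were Gria1 above Slc1a3, Slc1a3 above Grik5, Grin1 above Grm5, and Grik2 above Grik1. With the longest coding transcript the steps from Slc1a3 to Grik5 and from Grin1 to Grm5 held, the means of Gria1 and Slc1a3 changed places with overlapping libraries, and Grik2 and Grik1 overlapped.

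**Figure D1:**
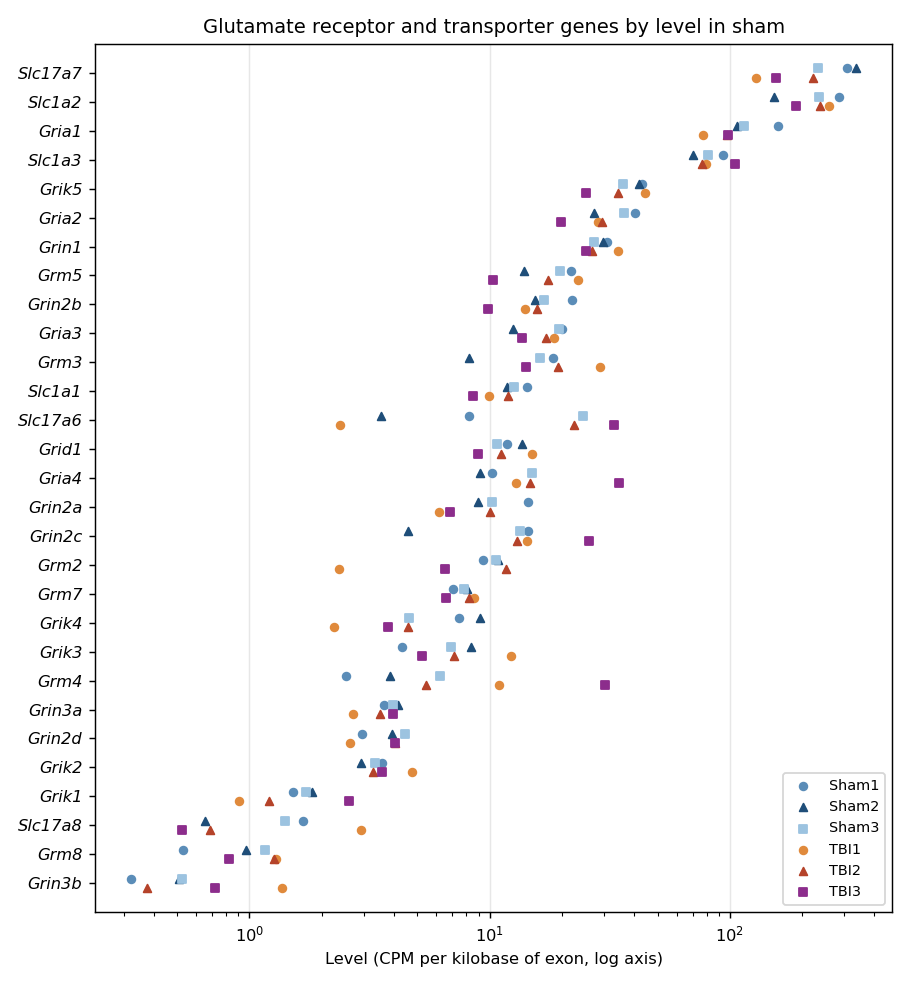
Level of the genes described in each library, as CPM per kilobase of exon on a log axis, ordered by the sham mean (Grm6, at 0, is left out). Sham1 to Sham3 are drawn in blues above each line and TBI1 to TBI3 in orange, red and purple below it, 1 symbol per mouse; Slc17a7 and Slc1a2 lead, and TBI3 stands far to the right for Gria4 and Grm4.

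The question was which of these genes differ in injured hippocampus, and it was put to edgeR's quasi-likelihood model over all genes. Differences are log2 fold changes of TBI over sham, written with their standard error (SE). None of the 31 genes tested met the thresholds of the study, which ask for an adjusted p under 0.1, an unadjusted p under 0.05 and more than a 1.5-fold difference either way. Of all 18795 genes tested 0% met them, although 806 had an unadjusted p under 0.05 from edgeR. The smallest adjusted p among the 31 was 0.982 from edgeR, and it was 0.231 from DESeq2 with its defaults, which called 0.164% of its genes (46 of 28118) and 0 of the 31, of which 7 had an unadjusted p under 0.05 (22.6%, against 4.11% of all genes). At an unadjusted p under 0.05 there were 5 of 31 genes, or 16.1%, against 4.29% of all genes tested. Lower in TBI at that threshold were Slc17a7, Gria1 and Grik4 (3 genes, or 9.68%, against 2.13% of all genes), and 2 genes, one of them Grm4, were higher (6.45%, against 2.16%). The groups did not overlap in 3 of 31 genes on the lower side, where 5.45% of all genes did not, and in 1 of 31 on the higher side, where 4.77% did not.

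The count of 5 moved with single libraries, and so did the share of all genes at that threshold. It was 1 without Sham1 (3.23%, against 2.49% of all genes), 3 without TBI3 (9.68%, against 2.88%) and 9 without TBI2 (29.0%, against 5.82%). It was 5 without TBI1 (16.1%, against 4.33%) and 4 without Sham2 or without Sham3 (12.9%, against 3.39% and 4.52%). With TBI2 as the only TBI library it was 0 of 31, against 1.7% of all genes. In that comparison the single TBI library was assumed to vary like the sham libraries. The median log2 fold change of the 31 genes was -0.023 with all libraries, against 0.0091 over all genes tested, with 15 genes above and 16 below 0. With TBI2 alone it was -0.073, against -0.017 over all genes, and 25 of the 31 genes had the same sign as in the comparison of all libraries. In bulk tissue fewer cells of a type and less RNA per cell cannot be told apart.

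**Figure D2:**
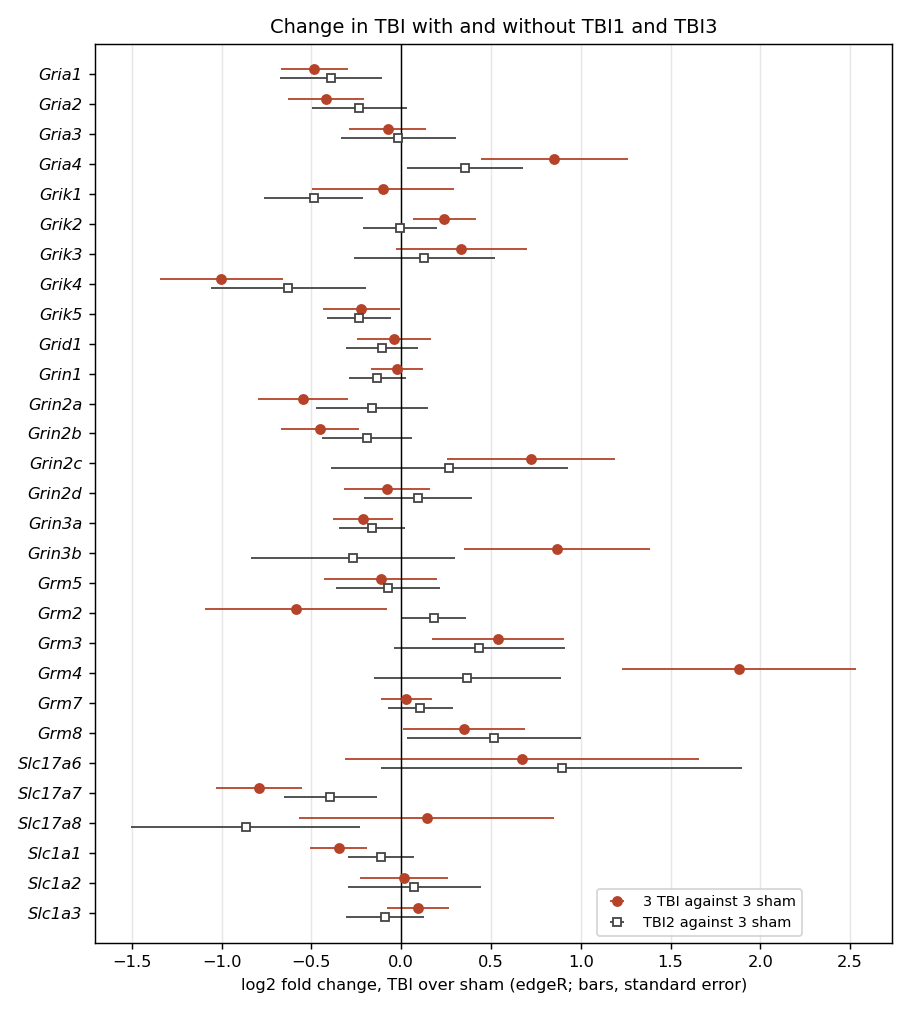
Change of the genes described in TBI over sham on the log2 scale from edgeR, with bars of 1 standard error, for all 6 libraries (filled circles) and for TBI2 against the 3 sham libraries (open squares). The circle of Grm4 (1.88) lies far to the right of its square (0.37), and the circles of Grik4 (-1.002) and Slc17a7 (-0.79) lie to the left of theirs (-0.63 and -0.39).

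Of the vesicular transporters, Slc17a7 (ENSMUSG00000070570.5, plus strand of GRCm38, chr7:45163949-45176142) had the smallest p of the group in edgeR (in DESeq2 it was that of Grm4). Its level was 1662, 1810.3 and 1253 CPM in Sham1 to Sham3 and 693, 1199 and 837 CPM in TBI1 to TBI3. The lowest sham library, Sham3, lay narrowly above the highest TBI library, TBI2, and the lowest value was that of TBI1, the library with striatal markers. Summed markers of CA1 pyramidal cells were 548, 613 and 523 CPM in Sham1 to Sham3 and 489, 487 and 263 CPM in TBI1 to TBI3, with 3 of 5 genes lower in TBI on average. Summed neuronal markers were 6193, 6148 and 6541 CPM in sham and 5656, 5955 and 5798 CPM in TBI, with 4 of 7 genes lower. Both sums were lower in every TBI library than in any sham library, as was Slc17a7, and their part in its level was not tested. Without Mpped1, the most abundant CA1 marker, the CA1 sums overlapped, with 387 CPM in TBI1 against 310 to 356 CPM in sham. The mean of Slc17a7 was 1575 ± 289 CPM in sham and, in TBI, 909.8 ± 261 CPM (SD, n = 3 mice per group). On the log2 scale the difference was -0.79 (SE 0.239), the unadjusted p 0.0138 and the adjusted p 0.982 from edgeR and 0.377 from DESeq2. It was -0.63 without TBI1, -0.74 without TBI3 and -0.39 (SE 0.260) with TBI2 alone.

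Slc17a6 encodes the vesicular transporter typical of thalamic and other subcortical excitatory neurons. Its level was 44.3, 19.1 and 132 CPM in Sham1 to Sham3 and 12.9, 121 and 177 CPM in TBI1 to TBI3, so the groups overlapped over almost the whole range. TBI over sham gave a log2 difference of 0.67 with an SE of 0.986, and it was 0.026 without TBI3, 0.24 without Sham2, 1.20 without TBI1, 1.70 without Sham3 and 0.89 with TBI2 alone. The summed level of the 6 thalamic and habenular markers (Tcf7l2, Prkcd, Lef1, Rgs16, Tac2 and Pou4f1) was 96.7, 48.8 and 245 CPM in Sham1 to Sham3 and 42.0, 203 and 278 CPM in TBI1 to TBI3. Both quantities put the 6 libraries in the same order, from TBI1 through Sham2, Sham1, TBI2 and Sham3 to TBI3. The part of thalamic tissue in the level of Slc17a6 was not tested.

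Slc17a8, the vesicular transporter of scattered interneurons and of neurons that also release other transmitters, was low throughout. It had 7.90, 3.09 and 6.62 CPM in Sham1 to Sham3 and 13.7, 3.22 and 2.47 CPM in TBI1 to TBI3, so TBI1 was the highest library and TBI3 the lowest. The estimated log2 difference was 0.14 (SE 0.709), and it was -1.04 without TBI1.

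**Figure D3:**
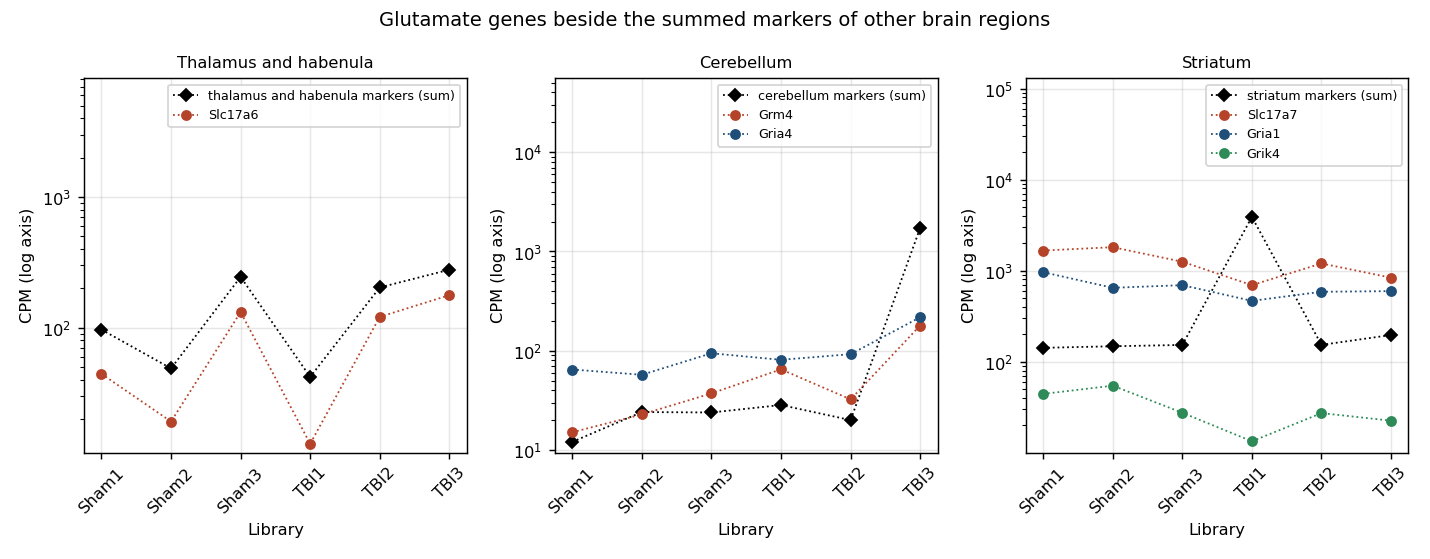
Level of selected genes (coloured circles, CPM, log axis) and the summed level of the markers of another brain region (black diamonds) in each library; dotted lines only guide the eye. Slc17a6 follows the thalamic markers through all 6 libraries, Grm4 and Gria4 peak in TBI3 with the cerebellar markers, and Slc17a7, Gria1 and Grik4 are lowest in TBI1, where the striatal markers peak.

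The promoter windows of Slc17a7 and Grik4 are shown because both genes were lower in every TBI library than in any sham library. Gria1 met the same criterion and has no window in the table. The windows are those of RefSeq on GRCm38.p6, with 250 bases before the start site and 50 after it, and were found for 21 of the 32 genes. Capitals mark the GC box GGGCGG, the core site of Sp factors, or its complement CCGCCC, searched on both strands. That of Slc17a7 lies on the plus strand at chr7:45163671-45163970 and that of Grik4 on the minus strand at chr9:42944322-42944621.
Slc17a7: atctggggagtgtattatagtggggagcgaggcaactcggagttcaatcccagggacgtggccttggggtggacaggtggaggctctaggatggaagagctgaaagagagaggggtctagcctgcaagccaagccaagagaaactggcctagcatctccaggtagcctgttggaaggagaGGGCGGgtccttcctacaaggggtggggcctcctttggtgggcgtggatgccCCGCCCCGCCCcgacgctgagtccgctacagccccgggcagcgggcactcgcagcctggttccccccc
Grik4: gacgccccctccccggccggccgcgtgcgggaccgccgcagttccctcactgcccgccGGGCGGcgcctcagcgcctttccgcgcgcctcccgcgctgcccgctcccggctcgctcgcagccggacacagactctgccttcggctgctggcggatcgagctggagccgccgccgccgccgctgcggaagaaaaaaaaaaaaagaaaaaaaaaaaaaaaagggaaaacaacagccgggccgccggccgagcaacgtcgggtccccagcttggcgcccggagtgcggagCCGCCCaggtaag
The window of Slc17a7 held 3 matches, 2 of which overlap by 1 base, and that of Grik4 held 2. Among all 32851 windows of the same length 35.7% held at least 1 match. Of the 21 genes with a window 13 had a match in at least 1 of their windows. That count is per gene and not per window, since Grm7, Grm8, Slc17a6 and Slc17a8 have more than 1 window. Base composition was 63.7% G and C for Slc17a7 and 70.0% for Grik4, against a median of 52.7% over all windows. A match describes the letters of the window and is not evidence of binding.

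AMPA receptors carry the fast excitatory current. Gria1 (ENSMUSG00000020524.16, plus strand, chr11:57011387-57330244) encodes GluA1, the subunit whose insertion into synapses underlies much of hippocampal long-term potentiation. It had 962, 648 and 693 CPM in Sham1 to Sham3 and 466, 586 and 596 CPM in TBI1 to TBI3. The groups did not overlap, the lowest sham library being Sham2 and the highest TBI library TBI3, and TBI1 was lowest of all. The CA1 and neuronal sums given beside Slc17a7 moved the same way, and their part in the level of Gria1 was not tested. In edgeR its log2 difference was -0.48 (SE 0.188), the unadjusted p 0.0385 and the adjusted p 0.982 from edgeR. It was -0.38 without TBI1, -0.28 without Sham1 and -0.39 (SE 0.283) with TBI2 alone.

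Gria2 encodes the subunit that keeps AMPA receptors closed to calcium. Its level was 626, 423 and 563 CPM in Sham1 to Sham3 and 441, 458 and 308 CPM in TBI1 to TBI3, and the groups overlapped through Sham2. On the log2 scale the difference was -0.42 (SE 0.210), and it was -0.26 without TBI3 and -0.23 with TBI2 alone. Gria3 had a mean of 171 ± 41.6 CPM in sham and, in TBI, 162 ± 24.4 CPM (SD, n = 3 mice per group), with a log2 difference of -0.075 (SE 0.215). The ratio of Gria1 to Gria2, per kilobase, was 3.69 ± 0.450 in sham and 3.67 ± 1.18 in TBI (SD, n = 3 each), from 2.72 in TBI1 to 4.98 in TBI3.

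Gria4, the AMPA subunit of cerebellar neurons and of fast interneurons, was highest in TBI3. It had 64.8, 57.3 and 94.5 CPM in Sham1 to Sham3 and 81.2, 92.5 and 218 CPM in TBI1 to TBI3. Only TBI3 was above the sham range. TBI over sham gave a log2 difference of 0.85 (SE 0.410, adjusted p 0.982 from edgeR), and it was 0.26 without TBI3 and 0.36 with TBI2 alone. The 6 interneuron markers summed to 799 to 943 CPM in sham and to 1706, 831 and 1289 CPM in TBI1 to TBI3. Of these markers 4 were higher and 2 lower in TBI on average. The part of interneuron and cerebellar content in the level of Gria4 was not tested.

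Kainate receptors adjust transmission at mossy fibre synapses and elsewhere. Grik4 (ENSMUSG00000032017.14, minus strand, chr9:42518135-42944493) encodes GluK4, a high-affinity subunit concentrated in CA3 pyramidal cells. Its level was 44.2, 54.5 and 27.5 CPM in Sham1 to Sham3 and 13.4, 27.2 and 22.5 CPM in TBI1 to TBI3. The lowest sham value, that of Sham3, and the highest TBI value, that of TBI2, were 27.5 and 27.2 CPM, so the groups were barely apart. The estimated log2 difference was -1.002 (SE 0.342), the unadjusted p 0.0233 and the adjusted p 0.982 from edgeR and 0.437 from DESeq2. It was -0.76 without TBI1 and -0.63 (SE 0.431) with TBI2 alone. The 5 markers of CA3 pyramidal cells (Bok, Iyd, Cpne4, Nptx1 and Ociad2) summed to 774 to 996 CPM in sham and to 368, 731 and 685 CPM in TBI1 to TBI3, all 5 of them lower in TBI on average. Nptx1 held most of that sum, and without it the other 4 summed to 370.0, 239 and 333 CPM in Sham1 to Sham3 and 167, 319 and 223 CPM in TBI1 to TBI3, with TBI2 inside the sham range. The part of CA3 content in the level of Grik4 was not tested.

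With all libraries the other kainate subunits gave no unadjusted p under 0.05. Grik5, the most abundant, encodes the partner subunit GluK5 and had 222, 216 and 186 CPM in Sham1 to Sham3 and 229, 177 and 130 CPM in TBI1 to TBI3, a log2 difference of -0.22 (SE 0.212). Without TBI1 it was -0.44, with an unadjusted p of 0.0464 from edgeR, while it was -0.041 without TBI3 and -0.23 with TBI2 alone (unadjusted p 0.819 and 0.245 from edgeR). Grik2, which encodes the principal subunit GluK2, was at 38.4 to 47.0 CPM in sham and 43.1 to 63.0 CPM in TBI, and Grik3 was at 38.7 to 74.9 and 46.9 to 110.3 CPM, with TBI1 highest for both. Grik1, the GluK1 subunit of interneurons, had 10.2 to 12.2 CPM in sham and 6.10, 8.09 and 17.5 CPM in TBI1 to TBI3, so TBI libraries lay on both sides of the sham range. Its log2 difference was -0.10 with all libraries, -0.68 without TBI3 (unadjusted p 0.0274 from edgeR) and -0.49 with TBI2 alone.

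NMDA receptors built of GluN1 and GluN2 subunits need glutamate, a co-agonist and depolarisation at once. The obligatory subunit GluN1 can also combine with GluN3 subunits. Grin1, which encodes GluN1, had the smallest difference of the NMDA receptor subunits. Its level was 297, 288 and 263 CPM in Sham1 to Sham3 and 331, 258 and 245 CPM in TBI1 to TBI3, and TBI libraries were both highest and lowest. In edgeR its log2 difference was -0.023 (SE 0.145), and the runs without 1 library lay between -0.17 and 0.056.

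Grin2a and Grin2b encode the GluN2 subunits of forebrain receptors, GluN2B being the juvenile form with slower currents. Grin2a had 259, 161 and 183 CPM in Sham1 to Sham3 and 110.0, 179 and 123.1 CPM in TBI1 to TBI3, and Grin2b had 545, 383 and 418 CPM in sham and 347, 393 and 244 CPM in TBI. In both genes TBI2 lay within the sham range while TBI1 and TBI3 lay below it. On the log2 scale the difference was -0.55 (SE 0.251) for Grin2a and -0.45 (SE 0.217) for Grin2b, both with an adjusted p of 0.982 from edgeR. With TBI2 alone the values were -0.16 and -0.19. Without Sham1 they were -0.32 and -0.28, and that of Grin2b was -0.28 without TBI3 too. The ratio of Grin2b to Grin2a, per kilobase, was 1.52 to 1.72 in sham and 2.28, 1.58 and 1.43 in TBI1 to TBI3.

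Grin2c, a subunit of cerebellar granule cells and of astrocytes, was spread widely in both groups. It had 72.6, 23.0 and 67.1 CPM in Sham1 to Sham3 and 72.3, 65.4 and 130.5 CPM in TBI1 to TBI3. Sham2 was far below and TBI3 far above the other 4 libraries. TBI over sham gave a log2 difference of 0.72 (SE 0.469), and it was 0.34 without TBI3, 0.36 without Sham2 and 0.27 with TBI2 alone. Grin2d, the subunit of interneurons, was at 19.5 to 29.6 CPM in sham and 17.4 to 27.0 CPM in TBI, and Grin3a, a subunit that lowers calcium entry, at 44.6 to 51.0 and 33.0 to 48.5 CPM. Grin3b had 43 to 67 counts in sham and 184, 39 and 84 counts in TBI1 to TBI3, and its log2 fold change of 0.87 (SE 0.518) was 0.28 without TBI1. Its exons share 1059 of 3296 bases (32.1%) with Tmem259 on the other strand, and since the strandedness of the libraries is not stated, reads of both genes cannot be told apart there.

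**Figure D4:**
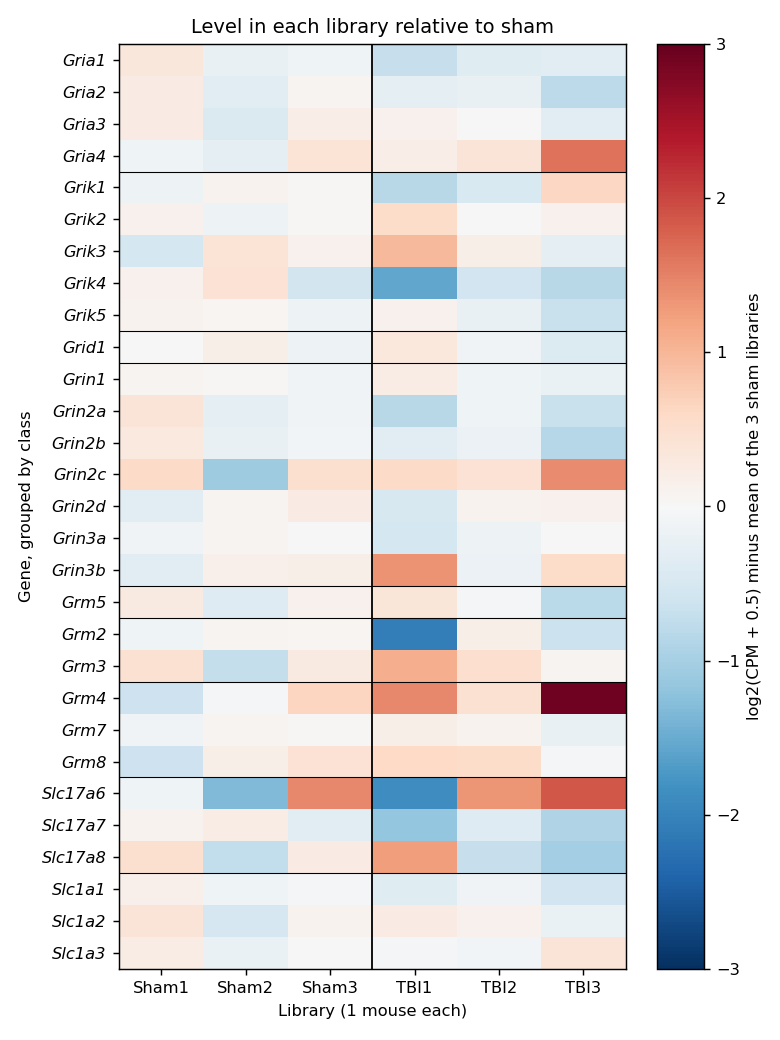
Level of the genes described in each library as the difference in log2(CPM + 0.5) from the mean of the 3 sham libraries (blue lower, red higher), with lines between classes and a line between the groups. The columns of TBI1 and TBI3 carry the strongest colours, with Grm4 darkest red in TBI3 and Grm2 darkest blue in TBI1, while TBI2 is strongest in Slc17a6.

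The delta receptors do not open with glutamate and act as adhesion receptors for cerebellins. Grid1, the delta subunit of the forebrain, had 70.3, 81.0 and 63.8 CPM in Sham1 to Sham3 and 89.1, 66.7 and 53.4 CPM in TBI1 to TBI3, a log2 difference of -0.041 (SE 0.207). TBI1 was the highest library and TBI3 the lowest.

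Among the metabotropic receptors, Grm4 had the largest difference of all 31 genes. Grm4 (ENSMUSG00000063239.17, minus strand, chr17:27422387-27521403) encodes mGlu4, a presynaptic inhibitory receptor abundant in cerebellar granule cells. Its level was 15.1, 22.9 and 37.3 CPM in Sham1 to Sham3 and 65.1, 32.4 and 180 CPM in TBI1 to TBI3. TBI2 lay inside the sham range, TBI1 above it, and TBI3 far above every other library. TBI3 was also the library with cerebellar markers, whose part in the value was not tested. In edgeR its log2 difference was 1.88 (SE 0.653), the unadjusted p 0.0251 and the adjusted p 0.982 from edgeR and 0.231 from DESeq2. It was 0.96 without TBI3 and 0.37 (SE 0.519) with TBI2 alone.

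Of the other group III receptors, Grm7, the mGlu7 receptor of presynaptic active zones, had 41.5, 47.2 and 46.1 CPM in Sham1 to Sham3 and 50.5, 48.4 and 38.6 CPM in TBI1 to TBI3. Its log2 difference was 0.029 (SE 0.143). Grm8 had 5.26 to 11.4 CPM in sham and 8.12 to 12.8 CPM in TBI, a log2 difference of 0.35 (SE 0.338) that was 0.092 without Sham1, 0.53 without TBI3 and 0.59 without Sham3.

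Group I receptors couple to phospholipase C. Grm5, the main one of the hippocampus, had 223, 142 and 202 CPM in Sham1 to Sham3 and 238, 180 and 106 CPM in TBI1 to TBI3, a log2 difference of -0.11 (SE 0.313). The highest and the lowest of the 6 libraries were both TBI libraries.

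Group II receptors lower cyclic AMP. Grm2, found in dentate granule cells and their mossy fibres, had 46.0, 53.1 and 52.0 CPM in Sham1 to Sham3 and 11.6, 57.2 and 31.9 CPM in TBI1 to TBI3. TBI1 was far below the other libraries, while TBI2 was the highest of all libraries. On the log2 scale the difference was -0.59 (SE 0.507), -0.18 without TBI1, -1.22 without TBI2 and 0.18 with TBI2 alone, so its sign turned. The 5 dentate granule cell markers summed to 283, 129 and 210 CPM in Sham1 to Sham3 and 75.8, 178 and 188 CPM in TBI1 to TBI3, with 4 of the 5 lower and 1 (Plk5) higher in TBI on average, and TBI1 alone was below the sham range. Grm3, which is largely astrocytic, had 56.2, 24.9 and 49.4 CPM in Sham1 to Sham3 and 87.8, 58.9 and 43.2 CPM in TBI1 to TBI3, with a log2 difference of 0.54 (SE 0.368). It was lowest in Sham2, and the value was 0.26 without Sham2, 0.23 without TBI1 and 0.43 with TBI2 alone.

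The astrocytic transporters differed less between the groups than between sham mice. Slc1a2 encodes GLT-1, which removes most of the glutamate released in the forebrain. It had 3751, 2013 and 3091 CPM in Sham1 to Sham3 and 3383, 3110 and 2470.4 CPM in TBI1 to TBI3, and every TBI library lay inside the sham range. TBI over sham gave a log2 difference of 0.017 (SE 0.244), between -0.20 without Sham2 and 0.23 without Sham1. Slc1a3 encodes GLAST, which takes up glutamate in astrocytes and Bergmann glia. It had 802, 599 and 691 CPM in Sham1 to Sham3 and 679, 655 and 899 CPM in TBI1 to TBI3, a log2 difference of 0.095 (SE 0.173).

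Slc1a1 encodes the neuronal transporter EAAC1. It had 118, 97.1 and 104 CPM in Sham1 to Sham3 and 81.7, 98.6 and 70.6 CPM in TBI1 to TBI3, and TBI2 lay inside the sham range while TBI1 and TBI3 were below it. The estimated log2 difference was -0.35 (SE 0.157, adjusted p 0.982 from edgeR), and -0.11 with TBI2 alone. Slc1a1 shares 2631 of its 8257 exonic bases (31.9%) with 4430402I18Rik on the other strand. Since the strandedness of the libraries is not stated, reads of both genes cannot be told apart there. The ratio of Slc1a2 to Slc1a3, per kilobase, was 2.71 ± 0.460 in sham and 2.70 ± 0.797 in TBI (SD, n = 3 each). With the longest coding transcript it was 1.50 ± 0.254 in sham and 1.49 ± 0.440 in TBI (SD, n = 3 each).

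Summed per kilobase over a class, the AMPA subunits had 190 ± 37.1 in sham and 154 ± 15.4 in TBI, and the NMDA subunits 77.3 ± 10.6 and 75.1 ± 1.67 CPM per kilobase (SD, n = 3 each). The vesicular transporters had 305 ± 42.3 in sham and 189 ± 55.9 in TBI, and the plasma membrane transporters 319 ± 79.8 and 325 ± 22.5 CPM per kilobase. Group III metabotropic receptors had 12.7 ± 2.56 in sham and 24.4 ± 11.7 CPM per kilobase in TBI, with 20.8 in TBI1, 14.9 in TBI2 and 37.4 in TBI3.

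Within the AMPA class Gria1 made up 66.6 ± 4.15% of the summed level in sham and 58.9 ± 2.48% in TBI (SD, n = 3 each), the TBI libraries lying at 56.4%, 61.3% and 59.2% and the sham libraries at 69.3%, 68.7% and 61.9%. The share of Gria4 was 4.47% to 8.08% in sham and 9.41%, 9.27% and 20.7% in TBI1 to TBI3. In the NMDA class Grin2c held 16.3%, 6.79% and 17.4% in Sham1 to Sham3 and 33.8% in TBI3, while TBI1 and TBI2 had 19.1% and 17.7%. In group III Grm4 held 25.02% to 40.95% in sham, 52.4% in TBI1 and 80.3% in TBI3, where Grm7 was left with 17.5%. In group II Grm2 held 33.8% to 56.99% in sham and 7.58% in TBI1. TBI2 had shares inside the sham range for Grin2a, Grm2, Grm4 and Slc17a7. Its shares lay outside that range for other genes, among them Gria1 (61.3%), Grik3 (14.2%, against 7.21% to 13.1%) and Grin2b (21.6%, against 22.0% to 24.8%). These shares depend on the exon length used: with the longest coding transcript in place of all exons, that of Grin1 in the NMDA class in sham was 54.9% in place of 38.1%, and that of Grik1 in the kainate class was 5.01% in place of 2.89%.

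**Figure D5:**
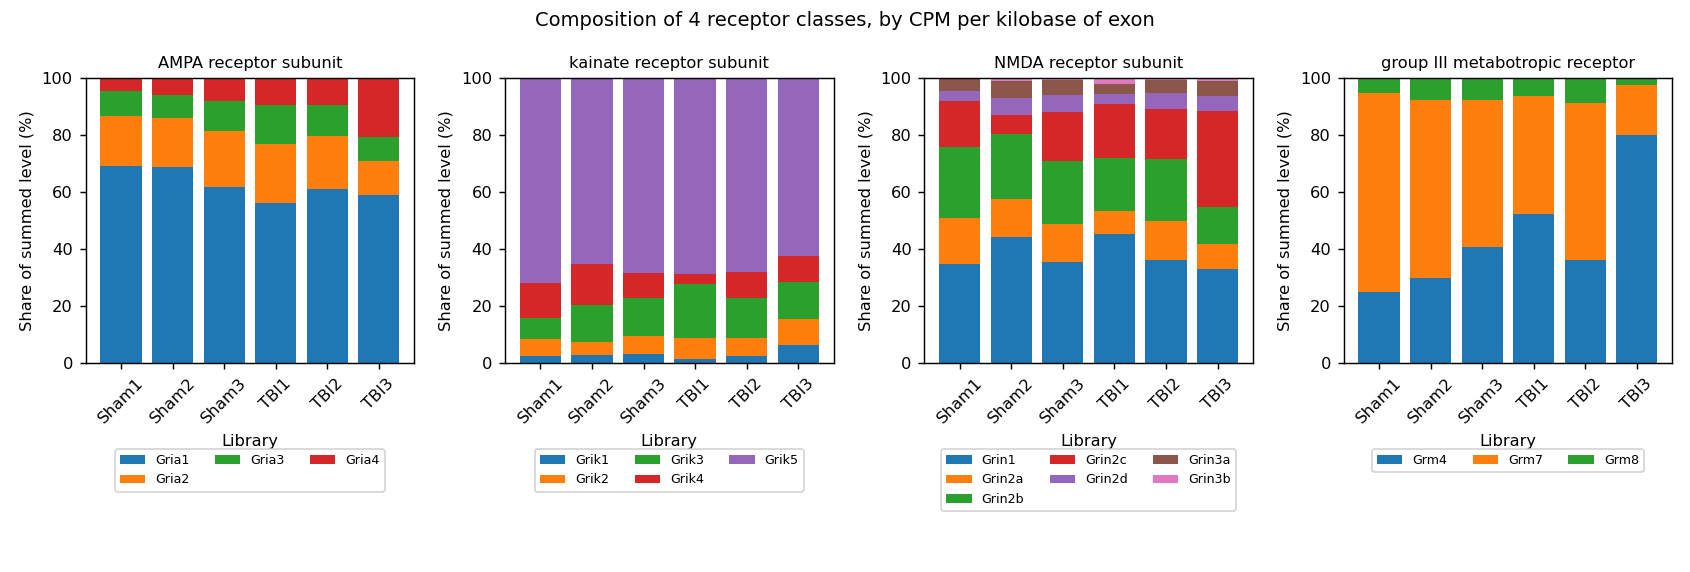
Share of each gene in the summed level of its class (percent, by CPM per kilobase of exon), 1 stacked bar per library, for 4 receptor classes; Grm6, at 0, is left out. Gria1, Grik5, Grin1 and Grm7 each hold the largest mean share of their own class in sham. In TBI3 the shares of Gria4 (20.7%), Grin2c (33.8%) and Grm4 (80.3%) are the largest of any library.

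Genes that work with these receptors and transporters were followed in 6 lists with 90 genes, of which 88 were tested. Of these, 10 (11.4%, against 4.29% of all genes tested) had an unadjusted p under 0.05 from edgeR, with 5 above and 5 below sham. Of the 5 above, 1 was Cbln3, which is also a cerebellar marker and was by far highest in TBI3. All 10 had an adjusted p of 0.982 in edgeR, and DESeq2 called 1 of the 87 genes of the lists that it gave an adjusted p, Nptxr. The list of auxiliary and trafficking proteins of AMPA and kainate receptors held 5 of them (20 of 20 tested, median log2 fold change -0.053). Cacng8, the TARP that anchors AMPA receptors in the hippocampus, had 171, 101 and 109 CPM in Sham1 to Sham3 and 69.4, 97.0 and 59.1 CPM in TBI1 to TBI3, with a log2 difference of -0.76 (SE 0.268). Cnih3, a cornichon chaperone of AMPA receptors, had -0.55, and Nsf, the ATPase that frees SNARE proteins and binds GluA2, had -0.38. Above sham were Shisa9, an AMPA receptor modulator of the dentate gyrus (0.56), and Cacng2, the TARP stargazin (0.51). Cacng2 had 74.1, 67.1 and 88.9 CPM in Sham1 to Sham3 and 109, 84.3 and 134 CPM in TBI1 to TBI3. TBI2 thus lay inside the sham range, and TBI3 was highest. With TBI2 alone the log2 differences were -0.39 for Cacng8, -0.15 for Cnih3, -0.19 for Nsf, 0.49 for Shisa9 and 0.14 for Cacng2. The groups did not overlap in 7 of the 20 genes, where 5.45% of all genes did not on the lower and 4.77% on the higher side. These were Cacng8, Cnih3, Nsf, Shisa6, Cpt1c and Grip1, lower in TBI, and Shisa9, higher. Cnih2, with Nsf the most abundant of the list, had 423 to 764 CPM in sham and 317 to 484 CPM in TBI.

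The list of secreted and presynaptic organisers held Nptxr, the neuronal pentraxin receptor, which clusters AMPA receptors. It had 899, 1167 and 711 CPM in Sham1 to Sham3 and 349, 578 and 460 CPM in TBI1 to TBI3, and every TBI library was below every sham library. In edgeR its log2 difference was -1.002 (SE 0.248), and -0.68 with TBI2 alone. DESeq2 gave it -1.01, with an adjusted p of 0.0995 from DESeq2, just inside the threshold of 0.1, against 0.982 from edgeR. Its partner Nptx1 had -0.74 (SE 0.341), and -0.54 with TBI2 alone. Cbln3, a cerebellar granule cell protein, was at 0.249 to 0.519 CPM in sham and at 0.318, 2.02 and 534 CPM in TBI1 to TBI3. Its log2 difference was 8.78 (SE 2.87) with all libraries and 1.51 without TBI3. The 12 genes had a median of -0.20.

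Of the signalling partners of metabotropic receptors (15 of 15 tested, median -0.052), Itpr1, the intracellular calcium channel opened by group I signalling, had 458, 226 and 399 CPM in Sham1 to Sham3 and 1067, 379 and 1224 CPM in TBI1 to TBI3. TBI2 lay inside the sham range and TBI1 and TBI3 far above it, and the log2 difference of 1.30 (SE 0.466) was 0.067 with TBI2 alone. Elfn2, which binds group III receptors across the synapse, had -0.52 (SE 0.183), and -0.19 with TBI2 alone, and Ncdn, the most abundant, -0.34. Among the genes of co-agonist supply (9 of 10 tested, median 0.22), the glycine transporter gene Slc6a9 had 0.68 (SE 0.250), and 0.35 with TBI2 alone, while the serine synthesis genes Phgdh and Psat1 had 0.22 and 0.29. Phgdh had 125, 41.3 and 116 CPM in Sham1 to Sham3 and 94.3, 119 and 117 CPM in TBI1 to TBI3, and Psat1 had 124, 68.6 and 110 CPM in sham and 127, 122 and 122 CPM in TBI. Both were lowest in Sham2, as were 5 of the 10 genes of this list, and without Sham2 the log2 differences were -0.13 for Phgdh, 0.081 for Psat1 and 0.57 for Slc6a9.

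The scaffold and kinase list (17 of 17 tested, median -0.21, 12 lower) and the list of glutamate and glutamine metabolism (15 of 16 tested, median 0.099) held no gene with an unadjusted p under 0.05. Camk2a, the kinase of postsynaptic plasticity, had 4022, 2232 and 2747 CPM in Sham1 to Sham3 and 2082, 2684 and 1825 CPM in TBI1 to TBI3, a log2 difference of -0.45 (SE 0.251), and -0.16 with TBI2 alone, and Dlg4, which encodes PSD-95, had -0.044. Glul, the astrocytic glutamine synthetase, had 2139, 877 and 2198 CPM in Sham1 to Sham3 and 1508, 2227 and 2131 CPM in TBI1 to TBI3, so Sham2 alone was far below the rest, and Glud1 had 0.20, or 0.035 without Sham2.

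Of the 31 genes 11 were highest in TBI1, 8 in TBI3 and 7 in Sham1, against 19.7%, 19.8% and 14.2% of all genes tested, and 9 each were lowest in TBI1, TBI3 and Sham2, against 20.6%, 18.03% and 23.0% of all genes. Sham1 was lowest in 4, against 15.9%. TBI2 was highest in 1 and lowest in 0 of the 31 genes, against 12.1% and 10.8% of all genes. Sham3 was likewise highest in 1 and lowest in 0, against 10.5% and 11.7% of all genes. Sham2 was highest in 3, against 23.7%.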

How the data were processed

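Libraries of hippocampal RNA from 3 sham and 3 TBI mice were compared, 1 per mouse. Reads had passed FastQC, HISAT2 alignment to GRCm38 and StringTie quantification, according to the submitters' notes. The authors deposited 1 table per library of estimated counts for each gene, in whole numbers and without normalization. Versions of these tools, strandedness and the way StringTie coverage became counts are not given in the sources used here. The value 4 occurred 5109 times and the value 3 only 2325 times, so counting error cannot be read from single values, and the limit at 3 counts is nominal.

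Gene identifiers were matched to GENCODE vM21 (52403 of 52550). The filterByExpr filter by group kept 18795 genes, TMM factors were 0.970 to 1.02, and edgeR 4.0.16 (R 4.3.3; glmQLFit, glmQLFTest) was run over all of them with Benjamini-Hochberg adjustment. DESeq2 1.42.0, a tool the study used in another version, served as an alternative, as did other scalings, filters, a replicate block and leaving out each library. SEs are those implied by the estimate and its test statistic. Levels per kilobase used the union of annotated exons. The scripts were tested on simulated data. The members and all gene lists were chosen with earlier results of these data known, and so were the classes. All 32 members were to be named, but some items are not reported here and are left out of the text and figures, while counts over the members include them, and of the other lists the genes with an unadjusted p under 0.05 and the 2 most abundant. The comparison with TBI2 alone was added after seeing the data. The labels name no pairing of mice. With 3 mice against 3, the smallest p of an exact permutation test is 0.1, so none was run on single genes.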

Additional observations from a re-analysis of the deposited data

How the results depend on the processing

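The count of glutamate genes called was 0 in every setting tried. The number of all genes called, 0 in the comparison reported, was 46 with DESeq2 and its defaults, 43 with DESeq2 on the genes kept by the filter, 1 with TBI2 as the only TBI library, and 0 to 1 when 1 library was left out. Glutamate genes with an unadjusted p under 0.05 numbered 5, 0 with TBI2 alone and 1 to 9 when 1 library was left out. The causes were not tested. Other scalings, filters, robust dispersions and counts divided by 4 left these counts and the signs of all 31 differences as they were.

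Of the 31 genes 14 changed sign in at least 1 setting. With TBI2 alone the log2 difference was -0.0061 for Grik2, 0.095 for Grin2d, -0.27 for Grin3b, 0.18 for Grm2, -0.87 for Slc17a8 and -0.090 for Slc1a3. Leaving out 1 library at a time gave -0.27 to 0.045 for Gria3, -0.68 to 0.18 for Grik1, -0.076 to 0.58 for Grik3, -0.26 to 0.12 for Grid1, -0.17 to 0.056 for Grin1 and -0.22 to 0.10 for Grin2d. The range was -0.41 to 0.14 for Grm5, -0.047 to 0.13 for Grm7, -1.04 to 0.53 for Slc17a8, -0.20 to 0.23 for Slc1a2 and -0.069 to 0.21 for Slc1a3.

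Deviations of mice with the same number had correlations over genes of -0.13, -0.068 and 0.20. Those of mice with different numbers ran from -0.22 to 0.24. Such values cannot decide whether the numbers pair samples, and the labels name no pairing. A replicate block gave 6 glutamate genes with an unadjusted p under 0.05, where 3.85% of all genes were under it, and turned the sign of Slc17a8, to -0.17.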

Other observations

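Other marker lists also differed between libraries of 1 group. The 5 choroid plexus markers summed to 2009, 50.3 and 2053 CPM in Sham1 to Sham3 and to 237, 2333 and 251 CPM in TBI1 to TBI3. Microglial markers were above sham on average for 7 of 7 genes, none with an unadjusted p under 0.05, and 6 of the 7 were highest in TBI1, where they summed to 609 CPM against 312 to 393 CPM elsewhere. The astrocyte sum was 5345 CPM in Sham2 and 2572 to 3311 CPM in the other libraries, which rested on Gfap, at 4055 CPM in Sham2 and 541 to 1478 CPM elsewhere. Without Gfap, Sham2 had the lowest sum, 1290.2 CPM against 1633 to 2617 CPM, and of the 7 genes 3 (Gja1, Slc4a4 and Aldoc) were lowest and 2 (Gfap and Aqp4) highest there.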
